A study of Sus scrofa with 6 samples.

Results

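CCR1, BTK, FYN, IL6R, FAS and SPP1 are 6 genes for receptors, kinases and a secreted ligand of immune cells. They were found as 6 of the 14900 mRNAs of the deposited table by matching their symbols to Ensembl identifiers, and each symbol matched 1 identifier. RNA-seq was run on skin of 3 female Bama pigs aged 2 years, a breed with black skin at both ends of the body and white skin between. Skin was cut to a depth of 8 mm at 2 sites of every pig, the white back and the black buttock, which gave 3 white and 3 black samples, with pig 1, 2 or 3 shared between the skins. Skin color and body site differed together in all samples and cannot be told apart. Each sample was whole skin, so fewer cells of a type and less RNA per cell cannot be told apart either. The values are FPKM (fragments scaled to transcript length and to the mapped fragments of the library), which hold no counts. The number of fragments behind a value was thus not at hand, and no counting interval is given. The samples of a skin came from different pigs, and the p-values measure the spread between these pigs.

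Skin holds resident macrophages, dendritic cells, mast cells and T cells, which sense and clear microbes and dying cells. Chemokine receptors such as CCR1 bring monocytes and neutrophils to sites where their ligands are made, and cytokine receptors such as IL6R pass signals through JAK kinases to STAT factors. FAS is the death receptor that starts caspase cleavage once its ligand binds. BTK and FYN are cytoplasmic tyrosine kinases below antigen and Fc receptors. SPP1 encodes osteopontin, a secreted phosphoprotein that binds integrins and CD44 and is made by macrophages among other cells.

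All 6 genes had higher FPKM in the 3 black samples than in the 3 white samples, with no overlap between the skins. Mean FPKM in black skin was 2.48 times (FYN) to 6.28 times (SPP1) that in white skin. SPP1 and IL6R passed the test over all mRNAs (limma with Benjamini-Hochberg adjustment, adjusted p below 0.05 and a log2 fold change beyond 1), which is 2 of 6, where 3.62% of all mRNAs were called lower in white skin. CCR1, FYN, BTK and FAS had adjusted p values of 0.0543, 0.0610, 0.0658 and 0.0918 and were not called. With the pig as a block, CCR1 was called too, which made 3 of 6 against 6.42% of all mRNAs. In 25.7% of all mRNAs the 3 white values lay below the 3 black values, so the lack of overlap alone was common in these samples. Every one of these genes is in the study's own list of mRNAs lower in white skin, drawn from the same samples, so the shared direction is not independent evidence.

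**Figure D1:**
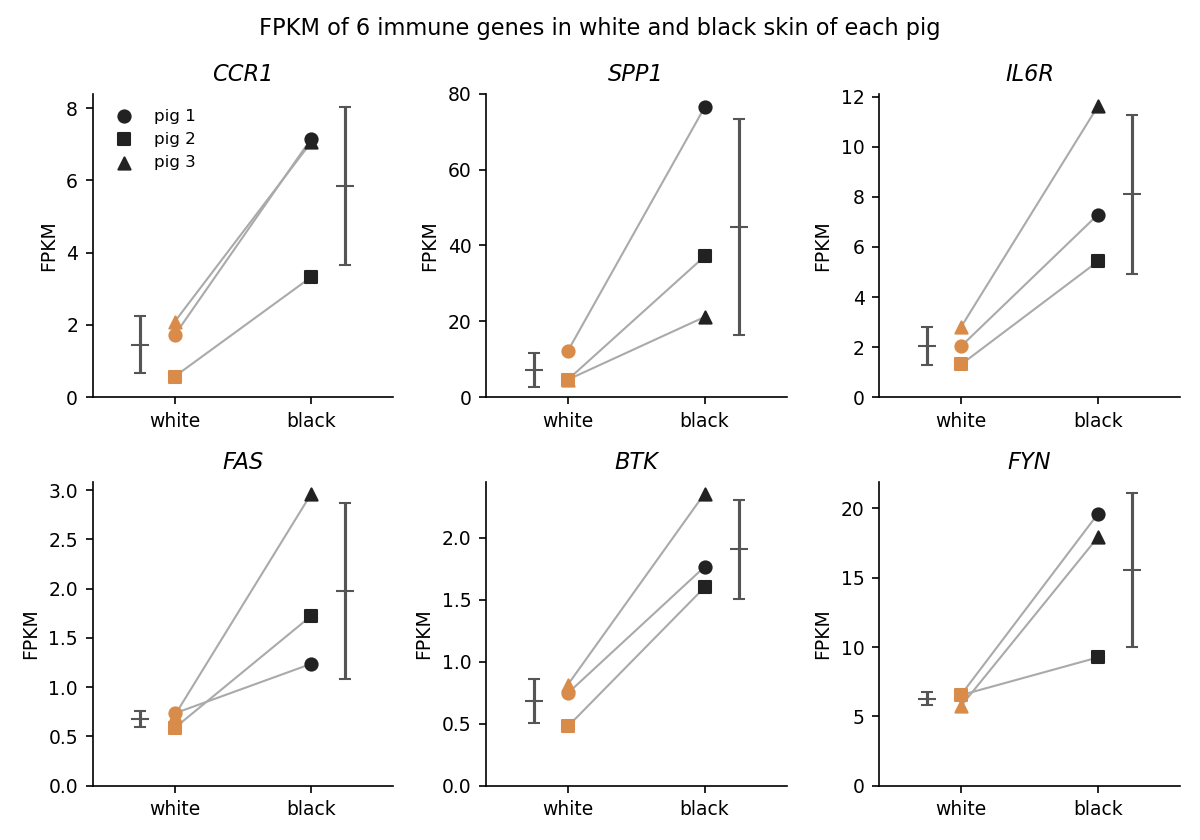
FPKM of CCR1, SPP1, IL6R, FAS, BTK and FYN in white and black skin, each panel with its own linear axis from 0. Symbols are pigs 1, 2 and 3, grey lines join the samples of a pig, and bars are the mean ± SD (n = 3). Every line goes up from white to black, by the smallest fold for FYN in pig 2 (6.53 to 9.25 FPKM) and by the largest for SPP1 in pig 2 (4.62 to 37.1 FPKM).

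CCR1 (ENSSSCG00000011322, chr13:29227218-29233862 of Sscrofa11.1) encodes the receptor for CCL3, CCL5 and related chemokines on monocytes, macrophages and neutrophils. It was at 1.72, 0.571 and 2.09 FPKM in white skin of pigs 1, 2 and 3, and at 7.16, 3.33 and 7.06 FPKM in black skin. Pig 2 had the lowest value of both skins, and its black value was still above the highest white value. Mean FPKM was 1.46 ± 0.790 (SD, n = 3) in white and 5.85 ± 2.18 (SD, n = 3) in black skin. The log2 fold change, white minus black on log2(FPKM + 0.5), was -1.72 (SE 0.43, limma adjusted p = 0.0543), a scale that understates the change of low values. Blocking for pig gave an SE of 0.25 and an adjusted p of 0.0202, past the threshold. The black to white fold was 4.17, 5.83 and 3.38 in pigs 1, 2 and 3, so pig 2, with the lowest levels, had the highest fold. RefSeq's model of XCR1, another chemokine receptor gene, spans chr13:29150376-29233802 and overlaps CCR1. How reads were divided between the models is not given in the sources used here, so the level of CCR1 is uncertain to that extent.

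IL6R (ENSSSCG00000027628, chr4:95322426-95381393) encodes the chain that binds interleukin 6 before the shared signalling chain IL6ST joins. White skin held 2.03, 1.31 and 2.81 FPKM in pigs 1, 2 and 3 and black skin 7.29, 5.42 and 11.6 FPKM. The order of the pigs was the same in both skins, with pig 2 lowest and pig 3 highest. The means were 2.05 ± 0.749 (SD, n = 3) and 8.11 ± 3.18 FPKM (SD, n = 3), a black to white ratio of 3.95. IL6R fell in white skin with a log2 fold change of -1.73 (SE 0.36, limma adjusted p = 0.0345). Black to white folds of single pigs lay between 3.58 and 4.14, the narrowest range of the 6 genes.

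FAS (ENSSSCG00000010448, chr14:100927305-100954781) was at 0.733, 0.585 and 0.712 FPKM in white skin and at 1.24, 1.72 and 2.96 FPKM in black skin of pigs 1, 2 and 3. The white values lay close together, with a coefficient of variation of 11.8%, while that of the black values was 45.1%. The mean was 0.677 ± 0.0799 FPKM (SD, n = 3) in white and 1.97 ± 0.890 FPKM (SD, n = 3) in black skin. The black to white fold ran from 1.69 in pig 1 to 4.16 in pig 3. FAS had a log2 fold change of -1.01 (SE 0.32, limma adjusted p = 0.0918). In the fit that blocked for pig the adjusted p was 0.0790, so FAS passed the test in neither fit.

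SPP1 (ENSSSCG00000009216, chr8:131077786-131085334) had the highest FPKM of the 6 genes in black skin. Its values were 12.2, 4.62 and 4.62 FPKM in white skin and 76.4, 37.1 and 21.1 FPKM in black skin of pigs 1, 2 and 3. Pig 1 was highest in both skins, and the lowest black value was above the highest white value. The mean was 7.14 ± 4.38 FPKM (SD, n = 3) in white and 44.9 ± 28.4 FPKM (SD, n = 3) in black skin. Among the mean FPKM of all mRNAs, SPP1 stood at percentile 59.8 in white and 92.2 in black skin. SPP1 fell in white skin with a log2 fold change of -2.52 (SE 0.52, limma adjusted p = 0.0336), and 0.389% of all mRNAs had a log2 fold change at or below it. The coefficient of variation was 61.2% in white and 63.3% in black skin, and blocking for pig brought the SE to 0.25.

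BTK (ENSSSCG00000026742, chrX:82981512-83014475) encodes a kinase of the Tec family in B cells, mast cells and cells of the macrophage line. It was low in all samples, at 0.746, 0.478 and 0.814 FPKM in white skin and 1.76, 1.60 and 2.35 FPKM in black skin. Pig 2 was lowest and pig 3 highest in both skins. Mean FPKM was 0.679 ± 0.178 (SD, n = 3) in white and 1.90 ± 0.397 (SD, n = 3) in black skin, percentiles 15.0 and 23.2 of all mRNAs. The log2 fold change was -1.03 (SE 0.28, limma adjusted p = 0.0658), and the blocked adjusted p was 0.0557. Black to white folds were 2.36, 3.34 and 2.89 in pigs 1, 2 and 3.

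FYN (ENSSSCG00000004421, chr1:77584675-77810605) encodes a Src family kinase of T cells and mast cells that many other cell types express as well. Its white values, 6.56, 6.53 and 5.76 FPKM, had a coefficient of variation of 7.29%, the lowest of the 6 genes. In black skin it was at 19.6, 9.25 and 17.9 FPKM in pigs 1, 2 and 3, with pig 2 well below the other two. The means were 6.28 ± 0.458 (SD, n = 3) and 15.6 ± 5.55 FPKM (SD, n = 3). The black to white fold was 1.42 in pig 2 and 2.98 and 3.11 in pigs 1 and 3. FYN had a log2 fold change of -1.18 (SE 0.31, limma adjusted p = 0.0610), and without black skin replicate 2 the log2 fold change was -1.51 and the adjusted p was 0.0469, past the threshold.

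An exact permutation test of the difference in mean FPKM gave p = 0.1 for each of the 6 genes (two-sided, n = 3 per skin), the smallest p that 3 samples against 3 can give. Values without overlap always give this p, so it only restates the lack of overlap. Before adjustment all 6 genes had p below 0.05 and a log2 fold change below -1 in the limma fit, as had 11.0% of all mRNAs. The genes differed in how they varied between pigs. Pig 2 was lowest in white skin for 5 of 6 genes (all but FYN, with SPP1 level with pig 3 to 3 digits) and lowest in black skin for 4 of 6 (CCR1, IL6R, BTK and FYN). Averaged over the 6 genes, the deviation of pig 2 from the mean of its skin was -0.33 in white and -0.36 in black skin on the log2 scale.

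Since FPKM is per length, levels can also be set side by side between genes. By mean FPKM the order in white skin was SPP1, FYN, IL6R, CCR1, BTK and FAS. There the single values of FYN and IL6R did not overlap, while all other neighbours in the order did. In black skin the order was SPP1, FYN, IL6R, CCR1, FAS and BTK. SPP1 and FYN did not overlap, nor did CCR1 and FAS, and the other neighbours did. Thus SPP1 and FYN were at a like level in white skin (7.14 and 6.28 FPKM) and apart in black skin (44.9 and 15.6 FPKM).

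The calls for SPP1 and IL6R changed after quantile normalization and when a library was left out. Leaving out a library also leaves fewer samples to fit, and the part of each was not tested. Over all mRNAs the median log2 fold change was -0.31, and 69.1% of mRNAs had a negative value. Quantile normalization moved that median to -0.03 and left no member called by limma, against 1.46% of all mRNAs, with adjusted p = 0.0540 for SPP1 and 0.0549 for IL6R and 5 of 6 genes at p below 0.05 before adjustment. Log2 fold changes of the 6 genes stayed negative in all 13 alternatives, and those of SPP1, IL6R and CCR1 stayed below -1. For FAS, BTK and FYN the quantile-normalized values were -0.62, -0.64 and -0.92. SPP1 and IL6R were called with pseudocounts of 0.1 and 1, among mRNAs with a mean FPKM of at least 1, without the trend and after upper-quartile scaling, where 3.72%, 3.27%, 4.29%, 3.56% and 1.97% of the mRNAs tested were called lower (12554 tested with the filter on the mean, 14900 otherwise). Leaving out white skin replicate 1 left SPP1 alone called (adjusted p = 0.0448, 0.664% of all mRNAs lower), and leaving out black skin replicate 2 left FYN alone (0.557% lower). None of the 6 was called by limma without white skin replicate 2 or 3 or without black skin replicate 1 or 3, though all 6 had p below 0.05 before adjustment in each of these fits. The lowest adjusted p of the 6 was then 0.138, 0.0594, 0.0613 and 0.0537 in that order, and the shares of all mRNAs called lower were 0.0470%, 0.651%, 3.69% and 0.356%.

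**Figure D2:**
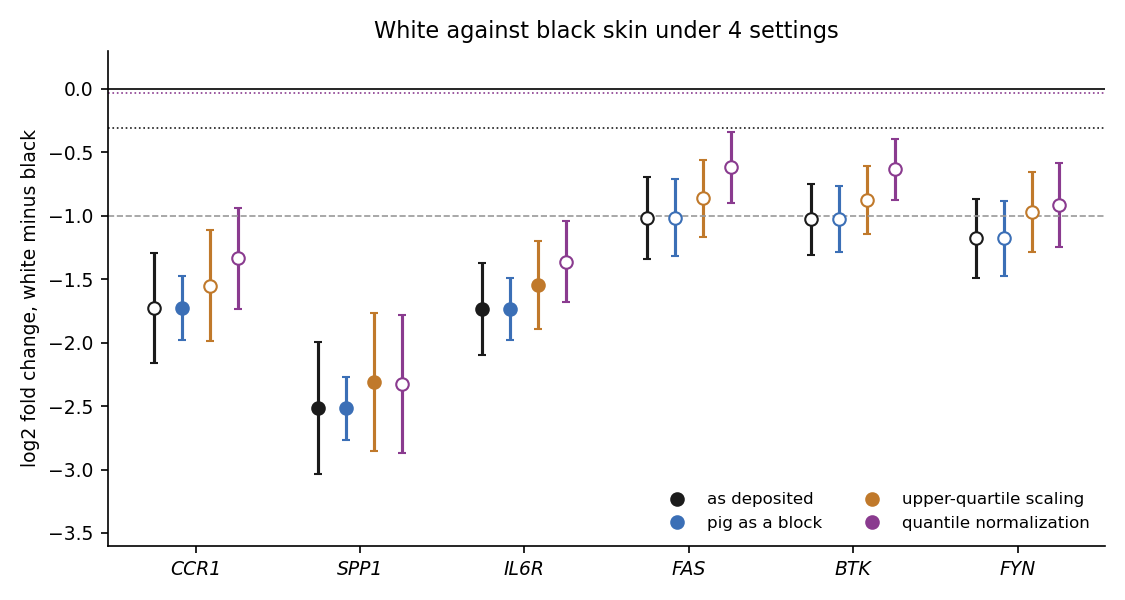
Log2 fold change, white minus black, of each gene with its SE (bars) for the values as deposited, with the pig as a block, after upper-quartile scaling and after quantile normalization. Filled points passed both thresholds; the dashed line marks -1, and dotted lines mark the median of all mRNAs as deposited (-0.31) and after quantile normalization (-0.03). SPP1 and IL6R are filled in 3 of 4 settings and CCR1 in 1, while FAS, BTK and FYN are unfilled in all 4.

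Genes that act with the 6 members were taken from 7 lists of ligands, receptors and signalling partners, of whose 105 genes 83 had a named row. Among these 83, 4 were called lower and 1 higher in white skin by limma, that is 4.82% lower against 3.62% of all mRNAs. With the pig as a block 11 were called lower and 1 higher, where 6.42% of all mRNAs were called lower and 3.23% higher. Their median log2 fold change was -0.76, where that of all mRNAs was -0.31. In 47.0% of them the 3 white values lay below the 3 black values, against 25.7% of all mRNAs. The median of the partners thus lay below that of all mRNAs, and few of them passed the test. After quantile normalization the medians of the 7 lists were -0.63 to -0.31, against -0.03 for all mRNAs. CCL8 and IL6ST were the partners called there, where 217 of 14900 mRNAs were called lower and 483 higher. After upper-quartile scaling ACKR2, TNFRSF1B and CCL8 were called, where 294 of 14900 mRNAs were called lower and 558 higher. Over the partner lists and the marker lists described further on, 28 genes were called. This count was 5, 2 and 9 without white skin replicate 1, 2 or 3. It was 22, 10 and 7 without black skin replicate 1, 2 or 3. Calls over all mRNAs changed as well, from 539 lower and 391 higher. Without white skin replicate 1, 2 or 3 they were 99 and 120, 7 and 28, and 97 and 224. Without black skin replicate 1, 2 or 3 they were 550 and 297, 83 and 117, and 53 and 139. The lists share 7 genes with each other, among them CD79A, MS4A2 and LYN.

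Among the chemokine receptors other than CCR1, 12 of 18 had values, with a median log2 fold change of -1.01. ACKR2, a decoy receptor that takes up inflammatory CC chemokines without signalling to the cell, was the 1 called lower, at 0.737 ± 0.445 FPKM in white and 5.84 ± 4.24 FPKM in black skin (SD, n = 3), with a log2 fold change of -2.22 and an adjusted p of 0.0380. Blocking for pig brought 4 calls, which added ACKR1, ACKR3 and CMKLR1, where 6.42% of all mRNAs were called lower. CXCR4, the receptor for CXCL12, was at 7.75 ± 3.88 in white and 4.83 ± 2.29 FPKM in black skin (adjusted p = 0.359).

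Of 8 ligands of CCR1, 5 had values and 1 was called, in the direction opposite to the receptor. CCL8, a chemokine that attracts monocytes, was at 26.7, 15.9 and 12.1 FPKM in white and 2.72, 3.19 and 2.85 FPKM in black skin. All white values of CCL8 were above all black values, as in 9.62% of all mRNAs and the opposite of CCR1, and it rose in white skin with a log2 fold change of 2.38 (SE 0.32, limma adjusted p = 0.0124, blocked adjusted p = 0.0146). Of all mRNAs 2.62% were called higher in white skin. CCL3L1, CCL5, CCL14 and CCL16 had log2 fold changes from -1.01 to -0.75 and were not called. CCL5, which T cells make, was at 8.85 ± 2.85 FPKM in white and 18.5 ± 6.55 FPKM in black skin (SD, n = 3, adjusted p = 0.109).

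For interleukin 6 signalling all 17 listed genes had values, and 1 was called lower. This was IL6ST, the chain that carries the signal once IL6R has bound the cytokine. It was at 19.9, 17.5 and 23.5 FPKM in white and 34.8, 43.0 and 50.6 FPKM in black skin, with no overlap (log2 fold change -1.05, SE 0.23, adjusted p = 0.0392). Its mean was 20.3 FPKM against 2.05 FPKM of IL6R in white skin, and 42.8 against 8.11 FPKM in black skin. The cytokine itself, IL6, was at 1.53, 0.200 and 0.630 FPKM in white and 3.21, 1.87 and 7.65 FPKM in black skin. IL6 had a log2 fold change of -1.83 with an adjusted p of 0.0791, and was called once the pig was a block (adjusted p = 0.0431). SOCS3, a feedback inhibitor that STAT3 induces, was at 6.33 ± 3.85 and 19.0 ± 7.15 FPKM (SD, n = 3, adjusted p = 0.0770), and was not called. The kinase JAK1 had a log2 fold change of 0.01 and the factor STAT3 one of -0.42, with overlap between the skins for both. ADAM10, a protease that sheds IL6R from the cell surface, was at 7.81 ± 1.58 and 15.0 ± 3.23 FPKM (adjusted p = 0.0765).

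Around BTK, 16 of 17 pathway genes had values and FCER1G was called lower. FCER1G, the Fc receptor gamma chain of mast cells and macrophages, was at 11.0 ± 3.72 FPKM in white and 29.4 ± 5.87 FPKM in black skin (SD, n = 3). FCER1G had a log2 fold change of -1.43 at an adjusted p of 0.0401. SYK, the kinase that acts above BTK, was at 1.56 ± 0.597 and 2.91 ± 0.733 FPKM, and its substrate PLCG2 at 1.38 ± 0.231 and 2.82 ± 0.589 FPKM, neither of which was called. BMX, of the same kinase family as BTK, had a log2 fold change of -1.56 (adjusted p = 0.0704). The B cell receptor chain CD79A had one of -1.45 (adjusted p = 0.0665, blocked 0.0467), while its partner CD79B had one of 0.23 (adjusted p = 0.757). With the pig as a block 3 pathway genes were called lower (FCER1G, CD79A and MS4A2), against 6.42% of all mRNAs.

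No listed gene of the Src family kinases and their regulators was called among 14 of 19 with values in limma's fit, with or without the block, though 8 had p below 0.05 before adjustment, as had 28.4% of all mRNAs in either direction. Their median log2 fold change was -0.71. YES1, the broadly expressed kinase closest in kind to FYN, was at 14.8 ± 2.47 FPKM in white and 17.9 ± 2.32 FPKM in black skin (SD, n = 3). YES1 had a log2 fold change of -0.27 at an adjusted p of 0.454. FGR, a kinase of myeloid cells, had a log2 fold change of -1.37 (adjusted p = 0.110). CSK, which holds the family in check, was at 8.56 ± 0.825 and 16.4 ± 2.90 FPKM (adjusted p = 0.0579), and the adaptor SKAP2 at 11.2 ± 0.876 and 6.95 ± 1.65 FPKM (log2 fold change 0.68, adjusted p = 0.127).

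In death receptor signalling 10 of 15 genes had values and 1 was called lower. TNFRSF1B, the second receptor for tumor necrosis factor, was at 8.00 ± 2.90 FPKM in white and 28.5 ± 11.2 FPKM in black skin (SD, n = 3). TNFRSF1B had a log2 fold change of -1.76 at an adjusted p of 0.0387. CASP10, a caspase that starts cell death, had a log2 fold change of -0.98 and was not called. CFLAR, the inhibitor that blocks signals from FAS, was at 19.0 ± 1.88 FPKM in white and 13.7 ± 3.36 FPKM in black skin. CFLAR had a log2 fold change of 0.49 at an adjusted p of 0.235. The level of FAS was below 3 FPKM in every sample, while by mean FPKM TNFRSF1B and CFLAR lay above FAS in both skins and CASP10 below it.

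Of 12 receptors and relatives of osteopontin 10 had values, and none was called by limma, with 4 at p below 0.05 before adjustment. Blocking for pig called 1, ITGB3, where 6.42% of all mRNAs were called lower. CD44, a main receptor, was at 47.9 ± 15.0 and 73.0 ± 4.91 FPKM (SD, n = 3, log2 fold change -0.65, adjusted p = 0.145). ITGAV and ITGB1, integrin chains that bind osteopontin, were at 10.9 ± 2.62 and 84.2 ± 15.4 FPKM in white skin and at 10.0 ± 0.740 and 78.8 ± 23.7 FPKM in black skin. ITGB3, which pairs with ITGAV, was at 1.22 ± 0.707 and 3.94 ± 2.45 FPKM (log2 fold change -1.31, adjusted p = 0.109, blocked 0.0379). DMP1 and IBSP, secreted proteins of the same family as osteopontin, had log2 fold changes of -1.29 and -0.73 and were not called.

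**Figure D3:**
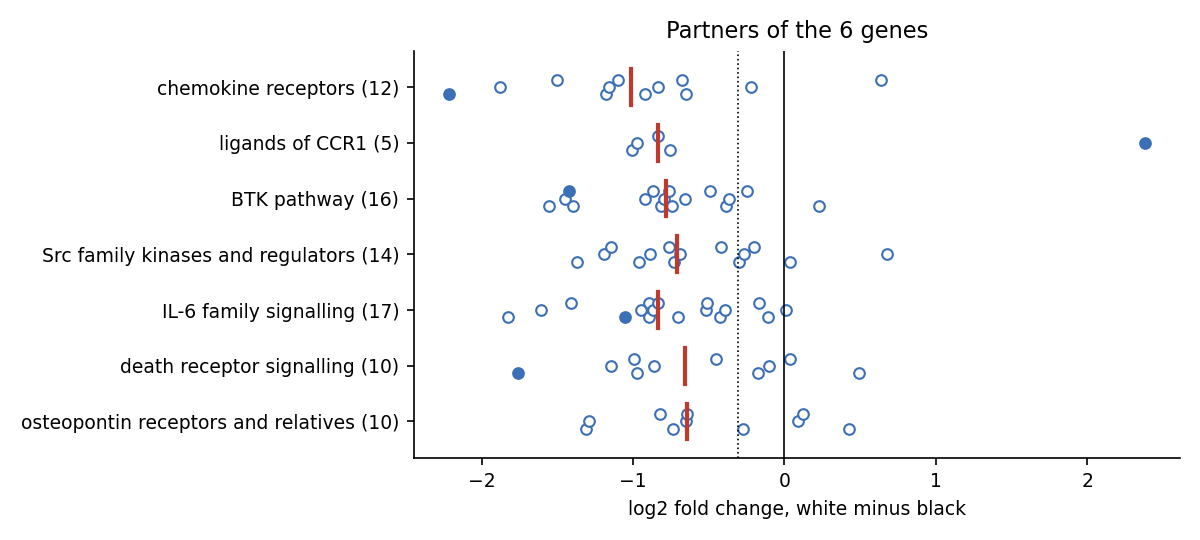
Log2 fold change, white minus black, of the named genes of 7 partner lists (number of genes in brackets), 1 point per gene. Filled points were called, red bars are list medians, and the dotted line is the median of all mRNAs (-0.31). All 7 medians lie between -1.01 and -0.65, 4 filled points lie below 0 and CCL8 lies alone at 2.38.

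Of 69 leukocyte markers in 7 lists, 45 had values, 40 of these with a negative log2 fold change, and limma called 5 of these lower and 0 higher in white skin, or 13 lower with the pig as a block. Of all mRNAs 69.1% had a negative value, 3.62% were called lower and 6.42% were called lower with the block. After quantile normalization LAPTM5 was the 1 leukocyte marker called (1.46% of all mRNAs lower), and after upper-quartile scaling LAPTM5, NKG7 and KIT were (1.97%). The pan-leukocyte markers summed to 31.0 to 58.0 FPKM in white and 103.9 to 124.7 FPKM in black skin. All 9 with values had a negative log2 fold change (median -1.15), and LAPTM5 and PLEK were called. After quantile normalization this median was -0.73. LAPTM5, a lysosomal protein of blood cells, was at 28.0 ± 7.47 and 68.8 ± 11.2 FPKM. PTPRC, which encodes CD45, was at 1.53 ± 1.24 and 2.98 ± 1.16 FPKM (SD, n = 3, adjusted p = 0.266), with overlap between the skins.

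The 10 macrophage and monocyte markers with values summed to 34.8 to 87.5 FPKM in white and 90.2 to 209.2 FPKM in black skin, with a median log2 fold change of -1.28. CD68, a lysosomal protein of macrophages, was called, at 5.09 ± 1.19 and 19.7 ± 10.2 FPKM (SD, n = 3, adjusted p = 0.0417). With the pig as a block 5 were called lower (CD68, CD163, MRC1, C1QA and C1QC), where 6.42% of all mRNAs were called lower. Mast cell markers had a median of -1.10 over 4 of 7 genes, with KIT called lower. KIT is also expressed by melanocytes. T and NK cell markers had a median of -0.50 over 8 of 13 genes with NKG7 called lower, at 1.89 ± 0.255 and 7.66 ± 3.28 FPKM. CD3E, a chain of the T cell receptor complex, was at 0.428 ± 0.160 and 0.727 ± 0.143 FPKM and CD3D at 0.725 ± 0.939 and 0.549 ± 0.610 FPKM.

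B and plasma cell markers (7 of 11, median -0.32), dendritic and Langerhans cell markers (4 of 9, median -0.77) and neutrophil markers (3 of 7, median -0.61) held no called gene in limma's fit as deposited, with 1, 2 and 0 genes at p below 0.05 before adjustment. With the pig as a block CD79A was called among them, where 6.42% of all mRNAs were called lower. The B cell marker MS4A1 was listed at 0 in both samples of pig 2 and was at most 0.546 FPKM. Of the neutrophil markers ELANE was listed at 0 in 5 of 6 samples, and S100A8, which keratinocytes make as well, was at 381, 40.5 and 393 FPKM in white and 36.4, 30.7 and 95.3 FPKM in black skin (adjusted p = 0.183). The part of any immune cell type in the lower values of the 6 genes was not tested.

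Other cell types differed too. All 6 adipocyte markers were called lower in white skin, with a median log2 fold change of -2.29 and a sum of 142.6 to 528.9 FPKM in white against 851.8 to 1975.7 FPKM in black skin, where 3.62% of all mRNAs were called lower. After upper-quartile scaling 2 of the 6 were called (LEP and CIDEC), where 1.97% of all mRNAs were called lower. After quantile normalization 5 were, where 1.46% of all mRNAs were called lower. Endothelial markers were called lower for 4 of 6 genes with values (median -1.87), 2 of them after quantile normalization (PECAM1 and CD34), and fibroblast markers for 2 of 8 (median -1.39), or 3 after quantile normalization. Melanocyte markers were called lower for 5 of 7 (median -3.02), and their sum was 1.33 to 1.64 FPKM in white and 30.8 to 167.6 FPKM in black skin, so the skins matched their color labels. Keratinocyte markers, 4 of 8 with values, had no called gene by limma, none at p below 0.05 before adjustment and a median of -0.34, and their sum was 88.1 FPKM in white skin replicate 2 and 579 and 688 FPKM in the other white samples. CKM, an enzyme of skeletal muscle, rose in white skin (46.7 ± 19.1 against 2.78 ± 1.69 FPKM), as 1 of 2 muscle markers with values. The other, ACTA1, was not called (limma adjusted p = 0.528). ACTA1 was at 0.0298, 0.194 and 1.77 FPKM in white and 0.0123, 0.138 and 0.349 FPKM in black skin, with overlap. The part of these cell types in the values of the 6 genes was not tested.

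**Figure D4:**
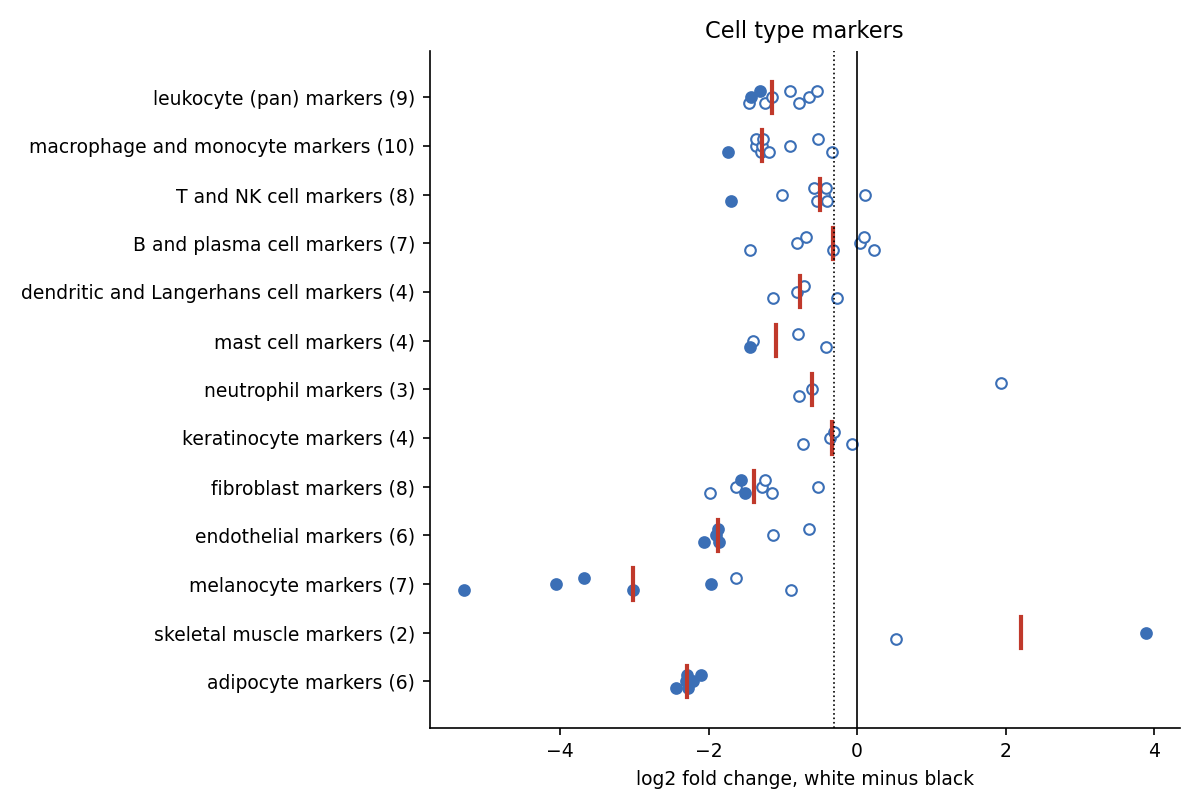
Log2 fold change, white minus black, of the named genes of 13 cell marker lists (number of genes in brackets), 1 point per gene. Filled points were called, red bars are list medians, and the dotted line is the median of all mRNAs (-0.31). Of the leukocyte lists the macrophage (-1.28) and pan-leukocyte (-1.15) medians lie lowest, and the adipocyte (-2.29) and melanocyte (-3.02) medians lie further down.

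The 6 genes were next set against markers within the same sample, a comparison chosen after the data were seen. From the log2(FPKM + 0.5) of each gene the mean log2 value of a marker list in that sample was subtracted, for 6 lists and 36 differences in all. No p could be below 0.1, so the values are a description. The share of all mRNAs without overlap after the same subtraction was not calculated. Against the 9 pan-leukocyte markers BTK, FAS and FYN differed little between the skins, by 0.02, 0.04 and -0.13, with overlap. Relative to the same list CCR1 was lower in white skin by a difference of -0.67 and SPP1 by -1.47, both with overlap. IL6R was at -0.39, -0.14 and -0.03 in white and 0.39, 0.20 and 0.91 in black skin, with no overlap (difference -0.68). Against the 10 macrophage and monocyte markers the white values of CCR1 and IL6R lay below the black values without overlap, with differences of -0.60 and -0.61. There the differences of SPP1, FAS, BTK and FYN were -1.39, 0.11, 0.10 and -0.05, all with overlap. Against the 8 T and NK cell markers all 6 genes were lower in white skin, with differences of -1.10 for CCR1, -1.89 for SPP1, -1.11 for IL6R, -0.39 for FAS, -0.40 for BTK and -0.55 for FYN, and CCR1, IL6R and BTK did not overlap. The small differences of BTK, FAS and FYN were thus seen for the first and second of these immune lists and not for the third. Markers of the third list were low, with white means from 0.133 (GZMA) to 1.89 FPKM (NKG7). BTK and FAS were low as well, with white means of 0.679 and 0.677 FPKM. The added 0.5 understates the change of such values, and how far this moved the differences against any list was not tested. With 0.1 added in its place the log2 fold changes of BTK and FAS were -1.37 and -1.34, where they were -1.03 and -1.01 with 0.5.

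**Figure D5:**
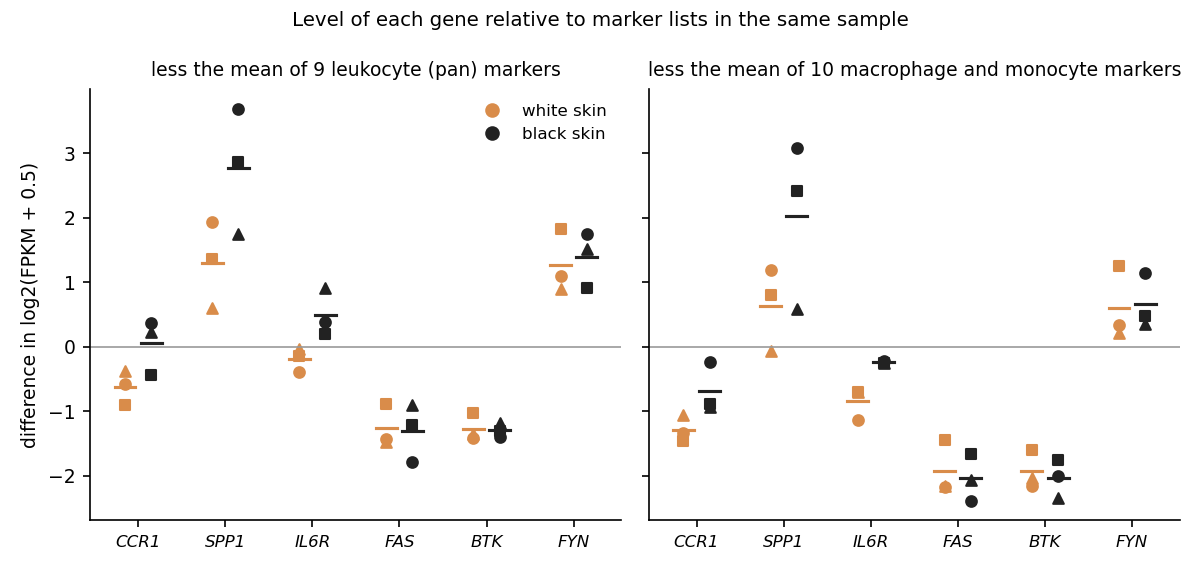
Level of each gene less the mean of 9 pan-leukocyte markers (left) or 10 macrophage and monocyte markers (right) in the same sample, in log2(FPKM + 0.5). Circles, squares and triangles are pigs 1, 2 and 3, and bars are means of 3. White and black values of FAS, BTK and FYN overlap in both panels, while those of IL6R do not in either.

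Against markers of other tissues the picture differed. Relative to the 6 adipocyte markers the difference, white minus black, was -0.24 for SPP1 with overlap, and 0.55, 0.54, 1.26, 1.25 and 1.10 for CCR1, IL6R, FAS, BTK and FYN. For CCR1, IL6R, BTK and FYN all white values then lay above all black values. The adipocyte markers themselves had a median log2 fold change of -2.29, where that of all mRNAs was -0.31. Any gene that fell less than these markers comes out higher in white skin on this scale. Relative to the endothelial markers the differences lay between -0.94 (SPP1) and 0.57 (FAS), and FAS was the one gene without overlap. Relative to the fibroblast markers they lay between -1.16 (SPP1) and 0.35 (FAS), all with overlap. SPP1 was lower in white skin against all 6 lists. For CCR1, IL6R, FAS, BTK and FYN the side on which the gene lay depended on the marker list.

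The pattern of each gene over the 6 samples was compared with 10848 named mRNAs that had a mean FPKM of at least 1. Likeness was the mean absolute difference of log2(FPKM + 0.5) over the samples, after the mean of each gene over the 6 samples was taken off, so 0 would be an identical pattern. The nearest mRNAs to BTK were TPST1 (0.0396), MYO1F (0.0409) and ZNF217 (0.0506), and MYO1F encodes a myosin of leukocytes. Nearest to IL6R were ALDH1L2 (0.0390), CYBRD1 (0.0979) and SLC25A34 (0.103). FAS had HHEX (0.0486), RTL5 (0.0604) and TMEM43 (0.0627) as its nearest, and FYN had CAMSAP2 (0.110), EHD4 (0.132) and MITF (0.145), the last of which encodes the main transcription factor of melanocytes. MITF was at 5.52 ± 1.00 FPKM (SD, n = 3) in white skin, where the melanocyte markers summed to 1.33 to 1.64 FPKM. CCR1 was nearest to EMP1 (0.122), TMEM100 (0.136) and AQP3 (0.158). SPP1 had no mRNA as close, with WNT11 (0.247), TFF3 (0.331) and SIK1 (0.376) nearest. Within the 6 genes BTK and FAS were the closest pair at 0.171, and CCR1 and IL6R followed at 0.249. SPP1 was 0.731 or more from each of the other 5.

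Long noncoding RNAs were measured in the same libraries. Of 7566 lncRNAs, 4 lay within 100 kb of a member, 1 each by CCR1, IL6R, BTK and FYN, and none by FAS or SPP1. None of the 4 was called by limma on log2(FPKM + 0.1), with 0 of 4 at p below 0.05 before adjustment, where 1.33% of all lncRNAs were called in either direction (3.21% with the pig as a block, which called none of the 4). TCONS_00117616, 95758 bp from BTK, was at 0.278, 0.137 and 0.149 FPKM in white and 0.708, 0.410 and 1.18 FPKM in black skin, with no overlap (log2 fold change -1.52, SE 0.89, adjusted p = 0.691). TCONS_00001174, 39952 bp from FYN, was highest in pig 3 of both skins, at 0.606 and 1.61 FPKM. TCONS_00022631 by CCR1 and TCONS_00075395 by IL6R were listed at 0 in 4 of 6 samples each. The SE of the 4 log2 fold changes was 0.89 to 1.12, above the 0.28 to 0.52 of the 6 members.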

How the data were processed

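Poly(A) RNA of 3 white and 3 black skin samples was sequenced as strand-specific paired-end libraries. According to the methods, the authors aligned reads with TopHat to Ensembl's Sscrofa11.1 assembly and calculated the deposited FPKM with StringTie; the submitters' processing notes list HISAT2 2.0.4, StringTie 1.3.3, Cufflinks 2.2.1 and CASAVA 1.8.2. The authors kept mRNAs above 0.5 and lncRNAs above 0.1 FPKM in at least 1 sample. No further scaling between samples is stated. The FPKM of the mRNAs summed to 408598 to 501424 per sample, with medians of 4.46 to 4.96 in white and 5.65 to 6.70 in black skin. Low values did not fall on steps of whole reads, so the fragments behind single values were not recovered. The paper gives read totals of the libraries, which were not used here.

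The skins were compared in R 4.3.3 with limma 3.58.1 (trend option), on log2(FPKM + 0.5) over all 14900 mRNAs and log2(FPKM + 0.1) over 7566 lncRNAs, with Benjamini-Hochberg adjustment, and the fit was tested on simulated data. A feature was called where its adjusted p was below 0.05 and its log2 fold change was beyond 1 in either direction. The pig was not in the fit, as in the study, and a second fit blocked for it. Both skins came from each pig, and deviations from the skin means correlated within the 3 pigs at r = 0.208, 0.360 and 0.204 across mRNAs. Single values were compared with an exact permutation test (Python 3.11.15, SciPy 1.17.1). Other pseudocounts, scalings, a filter on mean FPKM, limma without the trend and leaving out each sample were the alternatives. Leaving out a sample assumes that the skin left with 2 samples varies like the other.

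Symbols were given to 12414 of 14900 mRNAs (83.3%), 12236 from a gene table and 178 from the study's supplement, most of which it chose for their change. Listed genes without a row by name, and VWF and TNFSF10, for which the sources gave different identifiers, were not analysed here, and some listed genes are not reported here by name. Loci are those of RefSeq on Sscrofa11.1. Genes named are the 6 members, the genes of 20 lists chosen from textbook roles, the 3 mRNAs nearest in pattern to each member, and lncRNAs within 100 kb. The members and lists were chosen with earlier results of these data known.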

Additional observations from a re-analysis of the deposited data

How the results depend on the processing

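The log2 fold changes of the 6 genes were negative under all 13 alternatives of the fit. The count of genes called was 2 as reported, 3 with the pig as a block and 0 after quantile normalization, and 0 to 1 when 1 sample was left out. It was 2 under both other pseudocounts, upper-quartile scaling, the filter on mean FPKM and the fit without the trend. Blocking for the pig changed no other call among the 6. Of the listed partners and markers 28 were called as reported, 44 with the pig as a block and 2 to 22 when 1 sample was left out, lowest without white skin replicate 2. Over all mRNAs 539 were called lower and 391 higher (58.0% lower). The block gave 957 and 482, upper-quartile scaling 294 and 558 (34.5% lower), and quantile normalization 217 and 483 (31.0% lower); without white skin replicate 2 the counts were 7 and 28, without white skin replicate 1 they were 99 and 120, and without black skin replicate 3 they were 53 and 139. Relative to pan-leukocyte markers the sign turned for FAS (0.037) and BTK (0.025), and relative to macrophage markers for FAS (0.11) and BTK (0.10), by less than the SD between pigs. The cause of these changes was not tested. The 3 white values lay below the 3 black values in 6 of 6 genes also after upper-quartile scaling. Leaving out a sample cannot undo such a separation, so it tests nothing here. No lncRNA near a member was called by limma under the block, the other pseudocount or with a sample left out. Without counts, the error that depth adds to the low values of FAS and BTK was not estimated.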

Other observations

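The protein-coding genes within 100 kb of the 6 members were looked at after the values had been seen. RefSeq lists 22, of which 17 had values, with a median log2 fold change of -0.66. TDRD10, SHE and ATP8B2, all next to IL6R, were called lower in white skin, and none was called higher (limma, where 3.62% of all mRNAs were called lower and 2.62% higher). SHE, an adaptor with an SH2 domain 14317 bp from IL6R, was at 1.35 ± 0.490 FPKM in white and 4.97 ± 1.90 FPKM in black skin (SD, n = 3, adjusted p = 0.0478). ATP8B2, a lipid flippase on the other side of IL6R, was at 8.43 ± 0.910 and 22.0 ± 6.72 FPKM (adjusted p = 0.0399). UBE2Q1, AQP10, HAX1 and UBAP2L in the same region were not called, with log2 fold changes from -0.90 to 0.16.

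PKD2, which encodes a calcium channel of the primary cilium and lies 18854 bp from SPP1, was at 6.34 ± 1.48 FPKM in white and 17.4 ± 6.23 FPKM in black skin (SD, n = 3). The log2 fold change was -1.34, at an adjusted p of 0.0506 (blocked 0.0336). ACTA2, the smooth muscle actin gene 40573 bp from FAS, had values in the other direction, 662 ± 263 FPKM in white and 221 ± 147 FPKM in black skin. The log2 fold change was 1.88, at an adjusted p of 0.121. TIMM8A and RPL36A, the genes nearest to BTK on either side, had log2 fold changes of 0.57 and 0.09 and were not called.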
